A study of Mus musculus with 51 samples.

Results

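Glycolysis and hypoxia response genes were followed through the differentiation of mouse embryonic stem cells (mESCs) towards cardiac mesoderm. The set held 37 genes, chosen by symbol from the 24538 genes listed in each of the 9 expression tables, and each symbol was found once in every table. It comprised 18 glycolytic enzymes, 4 glucose and monocarboxylate transporters, 4 kinases that set glycolytic flux, 10 genes of the hypoxia response and *Hif1a*. F1G4 wild-type (WT) mESCs were profiled by RNA-seq as aggregates (ES stage) and on days 1, 2 and 3 of culture with Bmp4 (20 ng/ml). *Eomes* knockout (KO) and *T* KO cells, single clones made from F1G4 by deleting the promoter together with exon 1, and *Eomes*/*T* double knockout (dKO) cells, made by the same deletion of *T* in *Eomes* KO cells, were profiled on days 2 and 3 under the same Bmp4 treatment, so the *Eomes* KO and dKO lines share their *Eomes* deletion and its clone. *Smad4* KO cells, single clones in which Cre had excised a floxed first exon, were profiled on days 1 and 2 beside their own WT, cells that carried the same conditional alleles unexcised and came from another ES line. Feeder fibroblasts had been removed before differentiation.

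Glycolysis converts glucose to pyruvate, and lactate dehydrogenase reduces the pyruvate to lactate, which leaves the cell through monocarboxylate transporters. Hypoxia-inducible factors (HIFs) are transcription factors whose alpha subunits are marked for destruction by prolyl hydroxylases when oxygen is present, so that *Hif1a* is controlled largely at the protein level. Known HIF targets include many glycolytic enzymes and transporters as well as *Vegfa*, *Bnip3* and the prolyl hydroxylase genes *Egln1* and *Egln3* themselves, and pluripotent cells are known for high glycolysis.

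Each value was 1 pooled FPKM (mapped fragments per kilobase of transcript, scaled to the size of the library) per gene and condition, so no spread between replicates could be computed, no difference was tested, and the read depth behind a value is unknown. A gene was called higher or lower by the study's own rule, namely FPKM above 1 in at least 1 of the 2 columns compared and a log2 ratio above 1 or below -1, that is, a change past 2-fold. The share of all genes called by that rule is given beside the count of members, and it is the only yardstick these files allow besides the difference between the WT lines. In these bulk RNA samples, fewer cells of a type and less RNA per cell cannot be told apart.

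The targeted genes were lower in their KO lines where the files could show it, and further below WT on day 3 than on day 2 in the single KO lines. *Eomes* read 20.3 in WT and 0.276 in *Eomes* KO cells on day 3, *T* read 323 and 3.00 in *T* KO cells, and both were near 0 in dKO cells on that day (0.346 and 1.93). On day 2 *Eomes* KO cells still read 2.42 for *Eomes* against 9.42 in WT, *T* KO cells 6.64 for *T* against 44.8, and dKO cells 1.24 and 2.77. On day 2 the *Smad4* FPKM of WT was 39.3 and that of KO cells 46.8; a value over the whole gene does not check the loss of a first exon. The summed FPKM of 8 fibroblast markers lay between 0.627 and 5.51 in all columns, and no single one exceeded 2.97. The *Eomes* KO day 3 and *T* KO day 2 columns stood apart from the other KO columns. The robust SD of log2 ratios over genes was 0.622 and 0.617 in these 2 comparisons against 0.258 to 0.496 in the other 6. Although the 2 columns share no control, their log2 ratios correlated across 9520 genes with a Pearson's r of 0.55 (genes are not independent replicates). An r of that size was not particular to them. Without a shared control it was also 0.54 for dKO day 2 with dKO day 3 and for *Eomes* KO day 2 with dKO day 3. It was 0.51 for *Smad4* KO day 1 with day 2. Those pairs share a KO line or clone, which *Eomes* KO day 3 and *T* KO day 2 do not. All further such pairs lay at 0.315 or below. Every value given below for *Eomes* KO day 3 or *T* KO day 2 comes from these 2 columns, also where it stands in a row with others.

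In F1G4 WT cells the set moved upwards over the 3 days, and the hypoxia response genes and glucose transporters moved most. Between the ES stage and day 3, 17 of the 36 members examined were called higher and 2 were called lower, where 18.5% and 12.6% of all genes examined were. The median log2 ratio of the members was 0.96 against -0.02 over all genes. By role, 8 of 10 hypoxia response genes (median 2.64), 3 of 4 transporters (median 2.39), 1 of 4 kinases (median 0.74) and 5 of 17 enzymes (median 0.37) were called higher. The highest of the 4 stages was day 3 for 29 of the 37 members, including all 10 hypoxia response genes, whereas day 3 was the highest stage for 33.4% of the 11874 genes above FPKM 1 at any stage. A steady climb from day 1 through day 2 to day 3 was seen in 28 members and in 30.2% of those genes.

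**Figure D1:**
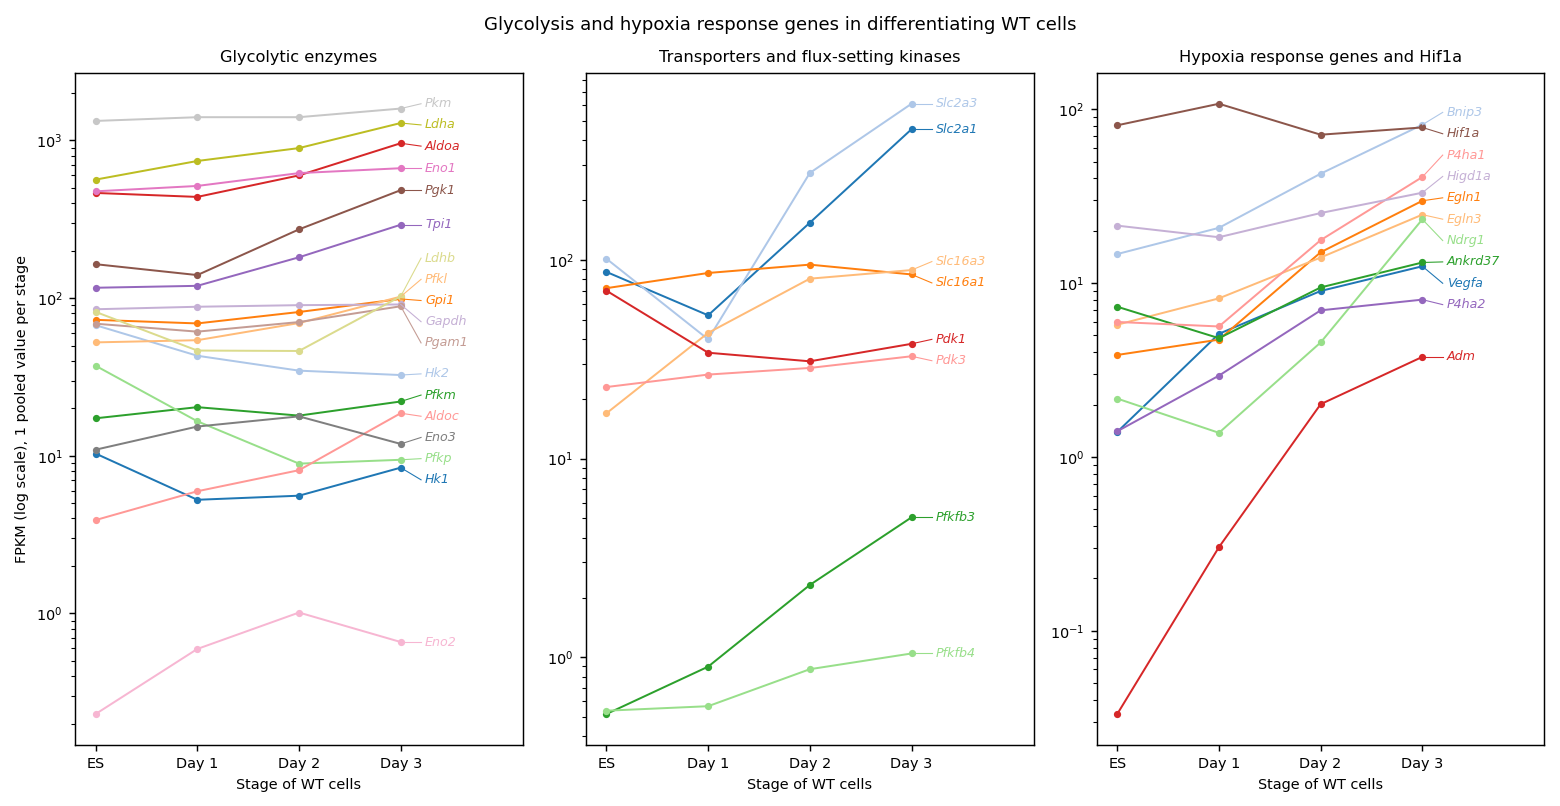
FPKM (log axis) of the 37 members at the ES stage and on days 1, 2 and 3 of Bmp4 culture in F1G4 WT cells, with 1 pooled value per point and each line labelled by gene. Most hypoxia response genes climb from day 1 to day 3 while *Hif1a* lies between 71.5 and 108; *Slc2a1* and *Slc2a3* dip on day 1 before they climb; *Pfkp* and *Hk2* descend.

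The steps differed. From ES to day 1 the members were balanced, with 3 called higher and 3 lower of 33 examined (background 7.70% and 5.84%). From day 1 to day 2, 9 of 36 were called higher and 0 lower (background 7.17% and 4.13%). From day 2 to day 3, 7 of 37 were called higher and 0 lower (background 6.14% and 4.06%). Adjacent steps share the column between them, so a value that is high in that column enters both.

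Glucose import showed the widest range among the transporters. *Slc2a1* and *Slc2a3* encode the glucose transporters GLUT1 and GLUT3. *Slc2a1* read 86.8, 52.5, 154 and 453 at ES and on days 1, 2 and 3, and *Slc2a3* read 101, 39.8, 273 and 609. Both were lowest on day 1 and highest on day 3, and the log2 ratio from day 1 to day 2 was 1.55 for *Slc2a1* and 2.78 for *Slc2a3*. The lactate exporter gene *Slc16a3* (MCT4) climbed without a dip, at 16.9, 42.9, 80.3 and 88.7, and its log2 ratio from ES to day 3 was 2.39. The related *Slc16a1* (MCT1), which carries lactate in either direction, stayed between 71.9 and 94.5 and was called in no comparison.

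Among the enzymes, the first step had less transcript at day 3 and several later steps had more. *Hk2*, a hexokinase that traps glucose in the cell, read 67.3, 43.1, 34.6 and 32.5 and was called lower from ES to day 3 (log2 -1.05). The second hexokinase, *Hk1*, was lowest on day 1 (5.25) and highest at ES (10.3). Phosphofructokinase, the main rate-controlling step, is encoded by *Pfkl*, *Pfkm* and *Pfkp*. *Pfkl* read 52.4, 54.1, 69.5 and 102, *Pfkm* read 17.3, 20.3, 18.0 and 22.1, and *Pfkp* read 37.2, 16.5, 8.91 and 9.42. *Pfkp* was called lower already on day 1 (log2 -1.17) and again over the whole course (log2 -1.98), while *Pfkl* stayed just short of the threshold (log2 0.96). As shares of the summed FPKM of these 3 genes, *Pfkp* went from 34.8% at ES to 7.05% on day 3 and *Pfkl* from 49.0% to 76.4%.

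In the middle of the pathway, *Aldoa*, which encodes the main aldolase, read 465, 438, 600.4 and 960.5 and was called higher from ES to day 3 at log2 1.05. *Aldoc*, the brain-type aldolase, went the same way at a far lower level, 3.91, 5.95, 8.09 and 18.6 (log2 2.25). *Tpi1*, triosephosphate isomerase, read 116, 119.6, 182 and 292 (log2 1.33). These 3 genes were all highest on day 3. *Pgk1*, phosphoglycerate kinase and the first step that makes ATP, read 164, 140.0, 273 and 484, and its log2 ratio of 1.56 was the second largest among the enzymes called after that of *Aldoc*.

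The end of the pathway was uneven. *Ldha*, the lactate dehydrogenase subunit that favours lactate production, read 565, 741, 895 and 1290.4 and was called higher from ES to day 3 (log2 1.19). *Ldhb*, the subunit more common in oxidative tissue, read 81.7, 46.5, 46.2 and 103, lower on days 1 and 2 than at either end. The *Ldha* share of the summed *Ldha* and *Ldhb* FPKM was 87.3% at ES, 94.1% on day 1, 95.1% on day 2 and 92.6% on day 3. *Eno1*, the ubiquitous enolase, read 476, 515, 621 and 667 and stayed within 2-fold. *Pkm*, the pyruvate kinase gene, had the highest FPKM of all members at every stage (1330.4, 1405, 1405 and 1594). Of the 37 members, 9 were called in none of the 12 comparisons, among them the enzyme genes *Gpi1*, *Gapdh*, *Pgam1*, *Eno3* and *Pkm*, and in the WT course *Gapdh* lay between 85.0 and 91.1. The muscle enolase *Eno3* (10.9 to 17.8) and the neuronal enolase *Eno2* (0.230 to 1.01) were minor, *Eno1* holding 97.0% to 98.2% of enolase FPKM in F1G4 WT cells.

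The kinases that set the flux did not move together. *Pdk1*, which shuts pyruvate out of the mitochondrial TCA cycle by phosphorylating pyruvate dehydrogenase, read 69.9, 34.1, 30.8 and 37.8 and was called lower on day 1 (log2 -1.04). Its relative *Pdk3* read 22.9, 26.4, 28.6 and 32.7. *Pfkfb3*, a bifunctional enzyme that makes an activator of phosphofructokinase, was low but called higher in 3 of the 4 WT comparisons, from 0.519 at ES to 5.06 on day 3. *Pfkfb4* stayed between 0.539 and 1.05.

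Transcripts of the hypoxia response climbed as a group in F1G4 WT cells while *Hif1a* did not. *Hif1a* read 80.9, 108, 71.5 and 78.7, with its highest value on day 1 and a log2 ratio of -0.04 from ES to day 3. *Vegfa*, the angiogenic growth factor, read 1.39, 5.11, 9.02 and 12.5 (log2 3.17 from ES to day 3). *Bnip3*, a mitochondrial protein of the mitophagy pathway, read 14.7, 20.8, 42.6 and 81.5 (log2 2.47). Both climbed at every step. The prolyl hydroxylase genes *Egln1* and *Egln3*, whose products mark HIF for destruction, read 3.86, 4.73, 15.1 and 29.8 and 5.77, 8.18, 14.0 and 24.8, with log2 ratios of 2.95 and 2.104. *P4ha1*, a collagen prolyl hydroxylase subunit, read 5.98, 5.63, 17.7 and 40.8 (log2 2.77), and its relative *P4ha2* went from 1.41 to 8.04. *Egln1* and *P4ha1* did little before day 2, whereas *P4ha2* and *Vegfa* were already called higher on day 1.

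*Ndrg1*, a stress-responsive gene that is also regulated during differentiation, read 2.17, 1.38, 4.56 and 23.3, and its log2 ratio of 2.35 from day 2 to day 3 was the largest of any member in that step. *Ankrd37* dipped on day 1 and then climbed (7.32, 4.82, 9.45 and 13.1), as did *Higd1a*, a mitochondrial inner membrane protein (18.4 on day 1 and 33.1 on day 3), and neither was called higher from ES to day 3. *Adm*, the vasodilator peptide adrenomedullin, had the largest log2 ratio from ES to day 3 (6.83), but it rested on an ES value of 0.0332 and reached only 3.76 on day 3.

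Genes of the same pathways outside the set were uneven. Of 27 further hypoxia response genes, 12 of 23 examined were called higher and 3 lower from ES to day 3 (median 1.04). *Anxa2*, a membrane-binding annexin, went from 8.27 to 134 and *Ddit4*, an inhibitor of mTORC1, from 3.67 to 50.7, while the histone demethylase gene *Kdm3a* went from 52.4 to 15.3. Of 26 other glycolysis and glucose genes, 2 of 16 were called higher and 3 lower (median -0.19), with *Pgm2*, a phosphoglucomutase, going from 8.37 to 67.9 and *Tigar*, a fructose bisphosphatase, from 22.8 to 8.52. None of 20 pyruvate dehydrogenase and TCA cycle genes was called in any WT comparison, and their median from ES to day 3 was -0.05. Of 8 genes of the HIF machinery, 2 were called higher and 1 lower, including *Cited2*, a HIF-responsive inhibitor of HIF, at 9.58, 10.2, 10.5 and 27.4, and *Epas1* (HIF2 alpha), named after its values were seen, at 8.81, 2.81, 0.217 and 0.317.

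Of the 17 members called higher from ES to day 3, 10 were called lower in dKO cells on day 3: *Aldoa*, *Aldoc*, *Tpi1*, *Pgk1*, *Ldha*, *Slc16a3*, *Bnip3*, *Egln3*, *Ndrg1* and *P4ha1*. Both comparisons use the WT day 3 value, the first as numerator and the second as denominator, so a high value there enters both and the overlap is a description; of the 2138 genes called higher from ES to day 3, 19.1% were called lower in dKO cells on day 3. Their promoters are shown for the 4 that have a single annotated start and a window outside the annotated gene, beside that of *Slc2a1*, the member called higher in *Smad4* KO cells on both days. Each line gives the 250 bases before the transcription start, 5′ to 3′ on the strand of the gene, from RefSeq (GRCm38.p6, the assembly that mm10 names). Capitals mark ACGTG and GCGTG, the cores of the element that HIF binds, read on either strand (CACGT and CACGC on the other), and the overlapping pair of matches in a CACGTG, also the E-box that other factors bind, was counted as 2. *Tpi1* (gene chr6:124810586-124814158, minus strand) had 0 matches in chr6:124814159-124814408, *Pgk1* (gene chrX:106187100-106203699, plus strand) had 2 in chrX:106186850-106187099, *Bnip3* (gene chr7:138890836-138909506, minus strand) had 5 in chr7:138909507-138909756, *Egln3* (gene chr12:54178981-54203874, minus strand) had 1 in chr12:54203875-54204124, and *Slc2a1* (gene chr4:119108745-119137330, plus strand) had 2 in chr4:119108495-119108744.
Tpi1: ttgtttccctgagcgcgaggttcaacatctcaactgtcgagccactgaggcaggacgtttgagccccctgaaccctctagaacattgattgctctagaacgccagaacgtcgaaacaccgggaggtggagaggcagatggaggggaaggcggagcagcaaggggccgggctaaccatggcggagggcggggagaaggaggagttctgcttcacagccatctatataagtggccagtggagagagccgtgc
Pgk1: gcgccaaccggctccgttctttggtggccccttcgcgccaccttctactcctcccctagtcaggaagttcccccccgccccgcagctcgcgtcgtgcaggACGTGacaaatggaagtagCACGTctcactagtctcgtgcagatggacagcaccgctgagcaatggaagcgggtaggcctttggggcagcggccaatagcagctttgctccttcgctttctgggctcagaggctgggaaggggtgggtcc
Bnip3: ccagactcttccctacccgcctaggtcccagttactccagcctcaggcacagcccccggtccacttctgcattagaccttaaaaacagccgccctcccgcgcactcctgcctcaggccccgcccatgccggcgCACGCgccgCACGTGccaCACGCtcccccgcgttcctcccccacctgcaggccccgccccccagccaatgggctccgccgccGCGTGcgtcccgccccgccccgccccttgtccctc
Egln3: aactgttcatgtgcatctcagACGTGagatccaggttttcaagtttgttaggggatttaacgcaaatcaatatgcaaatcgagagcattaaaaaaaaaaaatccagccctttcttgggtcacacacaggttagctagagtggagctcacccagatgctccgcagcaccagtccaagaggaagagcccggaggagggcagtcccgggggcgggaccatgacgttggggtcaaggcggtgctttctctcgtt
Slc2a1: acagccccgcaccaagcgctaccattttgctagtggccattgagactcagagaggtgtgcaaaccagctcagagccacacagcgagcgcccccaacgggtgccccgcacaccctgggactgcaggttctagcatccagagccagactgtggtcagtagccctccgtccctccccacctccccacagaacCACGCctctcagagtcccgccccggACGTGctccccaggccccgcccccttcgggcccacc

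A match was common. Windows of this length held at least 1 match in 38.6% of the 32851 promoter entries. Of the 9272 genes that had a promoter entry and were above FPKM 1 at any WT stage, 62.8% had a match at 1 or more of their starts. Among the 35 members with an entry, 32 had a match at any start (91.4%), as did 8 of the 9 such members called higher in WT and lower in dKO cells; *Slc2a3* and *Ndrg1* had no entry. A match is a run of letters and not a site, and no binding by HIF was measured in these cells.

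The WT of the *Smad4* line and F1G4 WT gave a yardstick of how far these genes differ between unmutated lines grown the same way, after the columns had been scaled to a common median ratio. On day 1, 3 of 33 members were called in either direction, against 11.1% of all genes. *Slc2a3* was the widest of them, at 39.8 in F1G4 WT and 167 in the *Smad4*-line WT (scaled log2 2.11). On day 2, 6 of 36 were called, all lower in the *Smad4* line, against 5.13% of all genes. They were *Aldoc*, *Eno2*, *Bnip3*, *Ankrd37*, *Ndrg1* and *Adm*. *Bnip3* was at 42.6 in F1G4 WT and 12.4 in the *Smad4*-line WT. All 10 hypoxia response genes had a scaled log2 ratio below 0 on day 2 (median -0.84), so a difference of that size in these genes arose between lines without any knockout. Their summed FPKM went from 72.3 on day 1 to 147 on day 2 in F1G4 WT. In the *Smad4*-line WT it went from 80.7 to 81.6, across separately normalized tables. There *Bnip3* went from 23.3 to 12.4 and *Egln3* from 11.2 to 7.63, while *Egln1* went from 4.17 to 9.89 and *P4ha1* from 7.66 to 11.0.

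In *Smad4* KO cells, which lack the common partner of the BMP and Nodal effectors, *Slc2a1* had the largest log2 ratio of the members examined on both days. On day 2 *Bnip3* was close behind (log2 1.57). On day 1 *Slc2a1* was the only member called, with 1 of 33 higher and 0 lower (background 2.36% and 2.41%). On day 2, 3 of 34 were called higher and 0 lower (background 2.56% and 3.21%), with a member median of 0.22 against -0.01 over all genes. *Slc2a1* read 78.9, 192, 101 and 319.6 in WT day 1, KO day 1, WT day 2 and KO day 2 (log2 1.28 and 1.66). The other transporter, *Slc2a3*, read 167, 107, 338 and 306 in the same order and was below its WT on both days, so that the *Slc2a1* share of their summed FPKM on day 2 was 23.0% in WT against 51.1% in the KO. The *Slc2a1* values of the WT lines lay within 2-fold of each other on both days (scaled log2 0.63 and -0.58).

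*Bnip3* was the other member called in *Smad4* KO cells at an FPKM of 10 or more. It read 23.3, 28.7, 12.4 and 36.8 in the same order of columns, and the day 2 KO value lay below the 42.6 of F1G4 WT on that day. *Aldoc* read 6.39, 8.32, 3.58 and 7.23 and passed the rule on day 2 by a small margin (log2 1.01). Both had been lower in the *Smad4*-line WT than in F1G4 WT on day 2 by more than 2-fold. That WT column also stands in these KO ratios, so a low value there enters both comparisons, and its part was not tested.

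The enzymes of *Smad4* KO cells had mostly small positive ratios on day 2, with *Aldoc* the only one past the rule. Of 17 examined, 15 had a log2 ratio above 0 (median 0.32), as did 5319 of 10999 over all genes. In the *Smad4*-line WT 14 of 18 enzymes had been below F1G4 WT on day 2 (scaled median -0.26). The same WT column stands in the KO ratios, so low values there enter both comparisons, and their part was not tested. *Ldha* read 593, 697, 708 and 1095, *Pgk1* read 179, 179, 206 and 306 and *Pfkl* read 37.9, 46.3, 54.4 and 79.6. *Aldoa* read 412, 450.4, 469 and 611, *Tpi1* 160.0, 166, 182 and 243 and *Eno1* 589, 564, 478 and 552. In each of these 6 genes the day 2 KO value was the higher of the day 2 pair. *Hk2* (24.0, 26.4, 30.7 and 33.0), *Pfkm* (20.0, 21.9, 22.1 and 26.6), *Pfkp* (6.02, 7.84, 5.22 and 6.78) and *Ldhb* (47.2, 54.2, 39.6 and 49.4) were within 2-fold as well. Of the hypoxia response genes given in full, all but *Bnip3* were within 2-fold on both days, namely *P4ha1* (7.66, 11.4, 11.0 and 19.4), *Egln3* (11.2, 6.70, 7.63 and 5.36), *Ndrg1* (1.55, 1.12, 1.56 and 0.791), *Vegfa* (5.12, 6.61, 5.68 and 6.12), *Egln1* (4.17, 5.68, 9.89 and 10.4) and *Ankrd37* (4.78, 4.86, 4.33 and 6.60). Within 2-fold as well were *Slc16a3* (50.0, 54.1, 75.3 and 88.5), *Pdk1* (27.9, 36.4, 17.1 and 19.9), *Pdk3* (25.9, 28.4, 28.2 and 32.8) and *Hif1a* (84.0, 87.4, 86.6 and 93.2). None of the 20 TCA cycle genes was called on either day. In the further hypoxia list 2 of 22 were called higher on day 2, the metallothionein genes *Mt1* (log2 1.23) and *Mt2* (log2 1.22), and 1 lower. *Pgm2* was called higher as well (log2 1.02). The summed FPKM of 8 nascent mesoderm markers (*T*, *Eomes*, *Mixl1*, *Wnt3*, *Nodal*, *Fgf8*, *Mesp1* and *Evx1*) on day 2 was 123 in WT against 6.62 in the KO. That of 6 neural markers (*Sox1*, *Pax6*, *Sox2*, *Zic1*, *Irx3* and *Nes*) was 67.9 and 195. *Sox2*, which the paper also names as a pluripotency gene, held 256 of the neural sum of 264 at the ES stage of F1G4 WT. The part of the cells' makeup in these differences was not tested.

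On day 2 few members were called in *Eomes* KO and dKO cells, and the counts moved with the scale of the values. In *Eomes* KO cells 3 of 36 members were called lower and 0 higher (background 4.17% and 3.35%), namely *Ndrg1* (log2 -1.93), *Eno2* (-1.45) and *Pfkfb3* (-1.12), none of which reached an FPKM of 5 in either column; 1 was called with a pseudocount of 1. In dKO cells 3 of 36 were called lower and 0 higher (background 4.50% and 3.48%), namely *Ndrg1* (-1.34), *Vegfa* (-1.17) and *Pfkp* (-1.05). The member medians were -0.03 and -0.12. In the dKO day 2 column log2 ratios also ran with transcript length, from a median of 0.29 in the shortest quartile of genes to -0.28 in the longest, and its FPKM added up to 608585 over the whole table, against 458639 in the WT column. Rescaled to TPM, this comparison had 7 members called and a median of -0.52, and with a pseudocount of 1 it had 0.

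On day 3 dKO cells had lower levels of most of the set. Of 37 members examined, 16 were called lower and 0 higher, where 5.53% and 5.51% of all genes were. The member median was -0.97 against -0.03 over all genes, and 35 of the 37 log2 ratios were below 0, as were 6053 of 11473 over all genes. Of the hypoxia response genes 5 of 10 were called lower (median -1.27), of the enzymes 9 of 18 (median -1.03), of the transporters 1 of 4 and of the kinases 1 of 4. None of the 20 TCA cycle genes was called (median -0.20), though 17 of their 20 log2 ratios were below 0. Of the further hypoxia genes 8 of 21 were called lower (median -0.84), among them *Stc2*, *Ero1l* and *Gys1* (log2 -1.52, -1.39 and -1.33), and of the other glycolysis genes 2 of 14, *Pck2* (-1.78) and *Pgm2* (-1.57). The summed mesoderm markers, which include the deleted *T* and *Eomes*, read 476 in WT and 40.8 in dKO cells on day 3. *T* alone gave 320 of that WT sum, so much of the fall was fixed by the deletion. The neural markers read 46.8 and 81.8, with *Sox2* at 20.4 and 35.8 and *Sox1* at 0.192 and 6.49. Only *Nes* was lower, at 25.5 and 24.7. The part of the cells' makeup in the lower glycolysis and hypoxia transcripts was not tested. Log2 ratios in this column ran from a median of 0.10 in the shortest quartile of transcripts to -0.18 in the longest. With trends of length and GC content removed, an alternative chosen after seeing the data, 14 members were called lower.

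**Figure D2:**
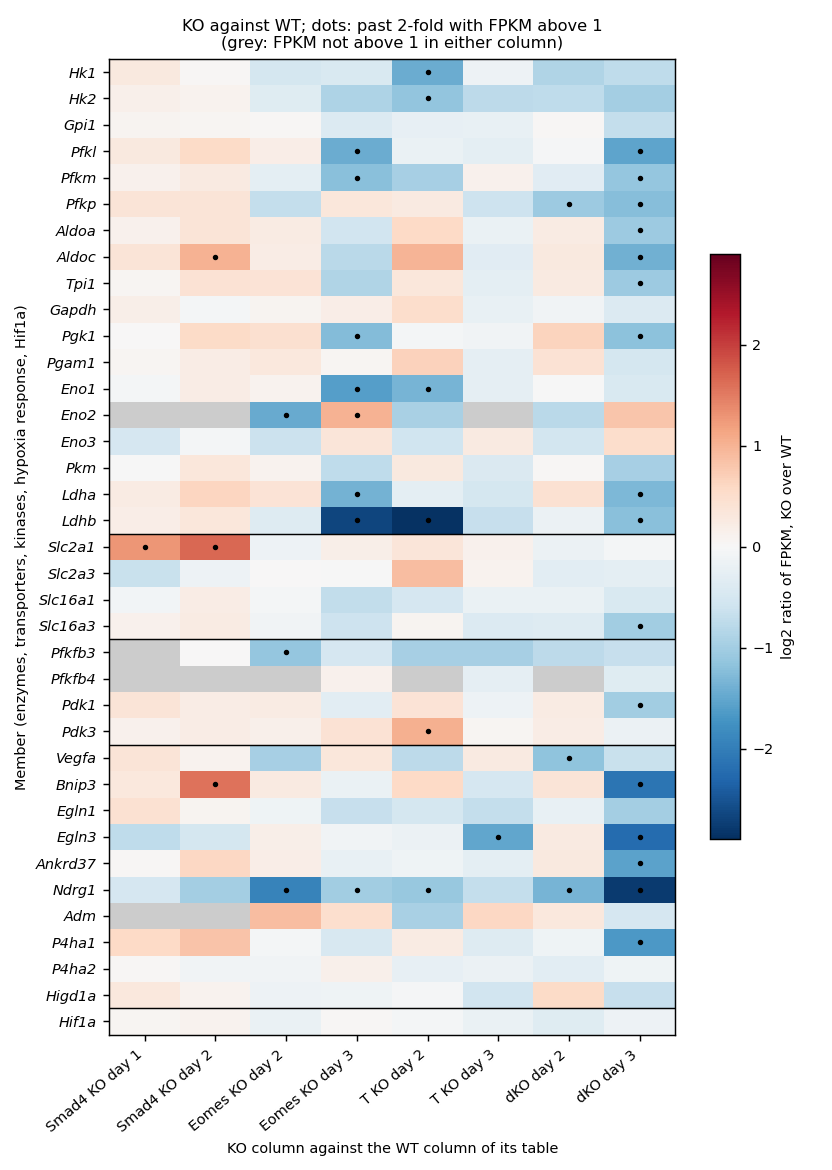
Log2 ratio of FPKM, KO over the WT column of the same table, for the 37 members (rows, grouped by role) in 8 comparisons (columns). Dots mark members past 2-fold with FPKM above 1, and grey cells had FPKM not above 1 in either column; the dKO day 3 column holds 16 dots, all lower, and *Slc2a1* carries a dot only in the *Smad4* KO columns.

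*Eomes* KO cells on day 3 (1 of the columns that stood apart) had 7 members called lower and 1 higher of 37, where 9.01% and 7.39% of all genes were. Of these 7, 6 were enzymes, and the enzyme median of -0.75 stood beside -0.16 for the hypoxia response genes. Log2 ratios in this column also ran with transcript length, from a median of -0.27 in the shortest quartile to 0.18 in the longest. The part of this trend in the 2 medians was not tested. Rescaled to TPM, 4 were called lower and 1 higher, *Pfkm*, *Pgk1* and *Ndrg1* falling short. *T* KO cells on day 2 (the other such column) had 5 members called lower and 1 higher of 36 (background 9.93% and 5.70%). *T* KO cells on day 3 had 1 called lower, *Egln3*, and 0 higher of 36 (background 3.92% and 2.12%). Of the 36 log2 ratios, 29 were below 0 (median -0.26), as were 5802 of 11239 over all genes (median -0.01). Rescaled to TPM, 2 were called lower. The summed mesoderm markers, 119.9 on day 2 and 476 on day 3 in WT, read 71.2 and 17.4 in *Eomes* KO and 102 and 69.7 in *T* KO cells. These sums include the deleted gene of each line, and *T* alone gave 43.5 and 320 of the WT sums. In *T* KO cells on day 2 the other markers did not fall together. *Eomes* (9.81 in WT and 24.7 in the KO), *Evx1* (3.61 and 7.53), *Nodal* (33.2 and 37.4) and *Wnt3* (16.9 and 18.3) were above WT. Below it, besides *T* (44.8 and 6.64), were *Fgf8* (14.2 and 7.04) and *Mixl1* (1.16 and 0.507). The neural markers, 49.1 and 46.8 in WT, read 93.3 and 78.3 and 80.8 and 80.5. Most of these sums was *Sox2* and *Nes*. On day 3 *Sox2* read 20.4 in WT, 35.2 in *Eomes* KO and 39.5 in *T* KO cells, and *Nes* 25.5, 18.4 and 37.3. *Irx3* read 0.690, 18.3 and 2.64. The part of the cells' makeup in the members' values was not tested. In the 2 columns that stood apart TCA cycle genes were lower as well. *Sdha*, *Idh3a* and *Dld* had log2 ratios of -1.29, -1.65 and -1.57 in *Eomes* KO day 3 and of -2.26, -2.03 and -2.14 in *T* KO day 2, where 3 and 7 of 20 were called lower. None was called in the other 6 KO comparisons. The F1G4 KO tables of 1 day share their WT libraries, so their ratios are not independent of each other.

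**Figure D3:**
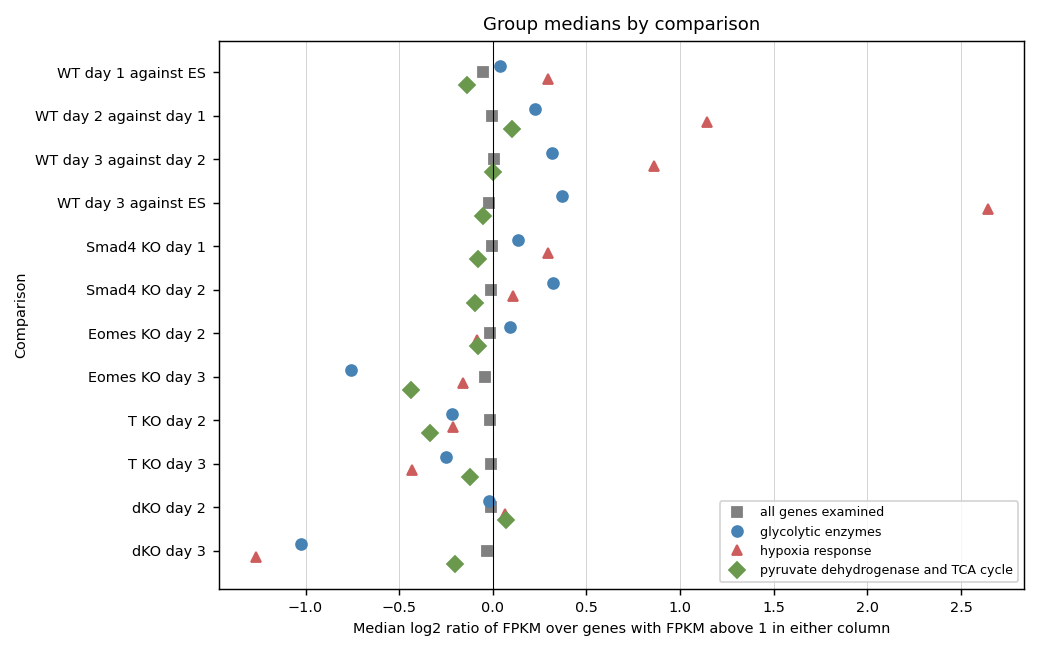
Median log2 ratio of FPKM (x axis) over the genes examined in each of the 12 comparisons (y axis), for all genes, the glycolytic enzymes, the hypoxia response genes and the pyruvate dehydrogenase and TCA cycle genes. The medians of all genes lie near 0; the hypoxia response median reaches 2.64 from ES to day 3 in WT and -1.27 in dKO cells on day 3, and in *Eomes* KO cells on day 3 the enzyme median (-0.75) is lower than the hypoxia response median.

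The glucose transporters stayed within 2-fold of WT in these KO cells. The KO columns are given below as *Eomes* KO, *T* KO and dKO, first on day 2 and then on day 3, from tables whose scale differed from the time course by a factor of 0.989 to 1.045; each ratio was taken within its own table. *Slc2a1* read 137, 202 and 135 on day 2 and 533, 497 and 452 on day 3, beside WT values of 154 and 453. *Slc2a3* read 274, 529.5 and 221 and then 634, 663 and 517, beside 273 and 609. Both were higher on day 3 than on day 2 in WT and in each KO line, and neither was called in any of these 6 comparisons, the largest log2 ratio being 0.90 for *Slc2a3* in *T* KO day 2. *Slc16a3* read 74.8, 88.2 and 61.4 on day 2 and 61.1, 67.7 and 46.1 on day 3. Its dKO day 3 value passed the rule at its edge (log2 -1.001), the lowest member inside it by size, while *Hk2* and *Egln1* fell just outside (-0.99 each).

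Of the enzymes of the first steps, the 3 phosphofructokinase genes were called lower in dKO cells on day 3 and *Hk1*, *Hk2* and *Gpi1* were not. *Pfkl* read 79.3, 62.7 and 67.3 on day 2 and 39.2, 85.2 and 36.7 on day 3, where WT read 102. Its day 3 log2 ratio was -1.45 in *Eomes* KO (a column that stood apart), -0.28 in *T* KO and -1.53 in dKO cells. *Pfkm* read 14.6, 9.58 and 14.1 and then 10.00, 24.4 and 10.5 (log2 -1.21, 0.13 and -1.12 on day 3). On day 3 both were called lower in *Eomes* KO and dKO cells and not in *T* KO cells. *Pfkp* read 5.46, 11.0 and 4.27 and then 12.4, 6.29 and 4.18, called lower in dKO cells on both days (-1.05 and -1.23). *Hk2* read 27.1, 16.3 and 20.6 and then 18.3, 19.4 and 17.0. It was below WT in all 6 columns and past the rule only in *T* KO day 2 (-1.14), the other column that stood apart. *Hk1*, at an FPKM below 10, was called lower there too (-1.44).

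Aldolase, triosephosphate isomerase and phosphoglycerate kinase were called lower together in dKO cells on day 3. *Aldoa* read 704, 921 and 701 on day 2 and 684, 845 and 478 on day 3, and went from 998 in the WT column to 478 in dKO cells on day 3 (log2 -1.06). *Aldoc* read 9.41, 16.7 and 9.72 and then 11.3, 14.9 and 7.40 (-1.39 in dKO day 3). *Tpi1* read 238, 235 and 217 and then 167, 243 and 146 (-1.06). On day 2 none of these 3 had been below WT in dKO cells by FPKM (log2 0.24, 0.28 and 0.27). That dKO column added up to 608585 FPKM against 458639 in WT, so the sign of these small ratios depends on the scale. *Pgk1* read 376, 273 and 423 and then 212, 459 and 222, and was called lower on day 3 in *Eomes* KO (-1.25, in the column that stood apart) and dKO cells (-1.18) but not in *T* KO cells (-0.09). *Eno1* read 662, 250.4 and 613 and then 231, 566 and 510.5. It was called lower only in the 2 columns that stood apart (-1.60 and -1.36), and its near-identical copy *Eno1b* read at most 18.1 in any column and 4.86 and 4.83 in those 2.

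Both lactate dehydrogenase genes were called lower on day 3 in *Eomes* KO and dKO cells. *Ldha* read 1170.3, 764 and 1210.1 on day 2 and 526, 920.0 and 547 on day 3. It went from 1343 in the WT column to 547 in dKO cells on day 3 (log2 -1.30) and to 526 in *Eomes* KO cells (-1.36, in the column that stood apart). In both lines the day 3 value was below the line's own day 2 value, whereas WT and *T* KO cells had more *Ldha* on day 3 than on day 2. *Ldhb* read 35.5, 6.57 and 40.8 and then 16.9, 64.7 and 46.2, with log2 ratios of -2.67 in *Eomes* KO day 3, -2.86 in *T* KO day 2 and -1.21 in dKO day 3. The first 2 of these come from the columns that stood apart. The *Ldha* share of lactate dehydrogenase FPKM was 99.2% in *T* KO day 2 and 92.2% in dKO day 3 (WT 95.1% and 92.6%). *Pkm*, called nowhere, read 1507, 1778 and 1425 and then 1003, 1201 and 846, with a log2 ratio of -0.97 in dKO day 3. *Gapdh* lay between -0.39 and 0.50 on the log2 scale over all 8 KO comparisons.

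**Figure D4:**
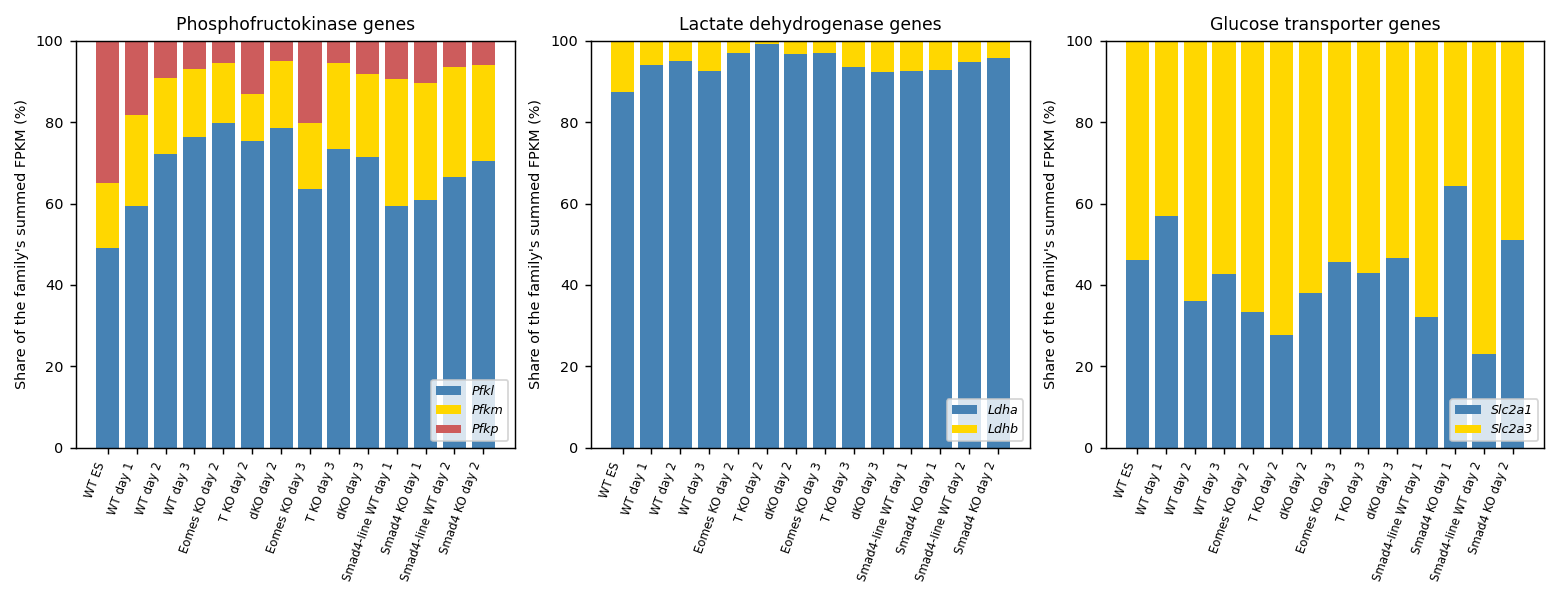
Share (%) of the summed FPKM of a family held by each member gene in the 14 columns, for phosphofructokinase, lactate dehydrogenase and the 2 glucose transporters. *Pfkp* holds 34.8% at ES and 7.05% on day 3 in WT; *Ldhb* is smallest in *T* KO day 2 (0.852%); *Slc2a1* holds 64.3% and 51.1% in *Smad4* KO cells against 32.1% and 23.0% in their WT.

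Among the kinases, *Pdk1* read 36.3, 42.1 and 36.1 and then 31.9, 34.5 and 19.4, called lower in dKO cells on day 3 alone (-1.02, close to the threshold). *Pdk3* read 31.2, 60.3 and 32.8 and then 45.5, 34.3 and 30.4 and was called higher in *T* KO day 2 (1.03), a column that stood apart. *Pfkfb3* was below WT in all 6 columns, by log2 -0.48 to -1.12, and *Pfkfb4* never exceeded 1.18.

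Several hypoxia response genes were lower in dKO cells on day 3 than in either single KO line. *Bnip3* read 50.7, 66.5 and 54.9 on day 2 and 74.5, 58.8 and 19.4 on day 3, and went from 84.9 in the WT column to 19.4 in dKO cells on day 3 (log2 -2.13). The single KO lines stayed within 2-fold of WT (-0.20 and -0.49). *Egln3* read 15.8, 12.9 and 16.8 and then 24.4, 8.80 and 5.54, near WT in *Eomes* KO cells on day 3 (-0.09) and lower in *T* KO (-1.51) and dKO cells (-2.22). *Egln3* was the only member called in *T* KO cells on day 3. *P4ha1* read 16.9, 21.7 and 16.0 and then 30.8, 31.6 and 13.4 (-1.66 in dKO day 3), and *Ankrd37* read 10.8, 9.05 and 11.4 and then 11.9, 11.0 and 4.70 (-1.54). *Egln1* read 13.7, 10.9 and 12.8 and then 19.7, 18.7 and 15.6 and was not called. Differences between KO lines were not tested.

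*Ndrg1* was called lower in more comparisons than any other member, 5 of the 8, and in 3 of the 6 that remain without the columns that stood apart. It read 1.19, 2.199 and 1.78 on day 2 and 12.0, 14.6 and 3.52 on day 3, and its ratio in dKO cells on day 3, from 24.2 in the WT column to 3.52, was the largest decrease of the set there (log2 -2.78). In the *Smad4* line it fell short of the rule (-0.48 and -0.98). *Vegfa* read 4.56, 5.53 and 3.97 and then 16.4, 15.0 and 8.26, below WT in all 3 lines on day 2 and above it in both single KO lines on day 3. *P4ha2*, *Higd1a* and *Adm* were called in none of the KO comparisons. *P4ha2* stayed between log2 -0.30 and 0.15 over all 8, so that *P4ha1* and *P4ha2* parted in dKO cells on day 3 (-1.66 and -0.13). *Hif1a* itself read 61.7, 70.8 and 55.4 on day 2 and 84.6, 69.0 and 74.0 on day 3, with log2 ratios between -0.35 and 0.11 over the 8 KO comparisons.

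From day 2 to day 3 the hypoxia response genes were mostly higher in the single KO lines and evenly split in dKO cells. KO columns of both days were divided by the scale factor of their WT column and set side by side, which crosses separately normalized tables, and the *Eomes* KO course rests on its day 3 column and the *T* KO course on its day 2 column, those that stood apart. Differences between the lines were not tested. In *Eomes* KO cells all 10 hypoxia response genes were higher on day 3 than on day 2, and 11 of the 18 enzymes were lower, where 51.0% of all genes were lower. In dKO cells 14 of the 18 enzymes and 5 of the 10 hypoxia response genes were lower on day 3, where 54.0% of all genes were. The dKO columns added up to 608585 FPKM on day 2 and 524868 on day 3. The WT factor does not remove that difference, and its part in the dKO counts was not tested. In *T* KO cells 11 of 17 enzymes and 7 of 10 hypoxia response genes were higher on day 3, where 50.6% of all genes were. In WT cells all 10 hypoxia response genes and 15 of 18 enzymes were higher on day 3 than on day 2, where 50.6% of all genes were.

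The wider lists held called genes in each of these columns. On day 2, 3 of 22 further hypoxia genes and 2 of 14 other glycolysis genes were called lower in *Eomes* KO cells, including *Anxa2* (log2 -1.26) and *Pgd*, an enzyme of the pentose phosphate pathway (-1.10), and 1 of 22 and 2 of 14 in dKO cells, with none higher in either (background lower 4.17% and 4.50%). In *T* KO cells the counts were 3 of 22 and 2 of 14 lower on day 2, with *Pgd* at -1.58 (background 9.93%, a column that stood apart), and 3 of 21 and 1 of 14 lower on day 3 (background 3.92%). In *Eomes* KO cells on day 3, 4 of 24 further hypoxia genes were called lower and 2 higher, with *Fam162a*, a mitochondrial HIF target, going from 308 in the WT column to 116, and 4 of 15 other glycolysis genes were called lower and 1 higher (background 9.01% and 7.39%, a column that stood apart). Of the HIF machinery, *Arnt*, the partner of the HIF alpha subunits, was called lower in *T* KO day 2, again the column that stood apart (from 11.8 in the WT column to 4.12), and *Cited2* in *T* KO day 3 (from 27.7 in the WT column to 12.5).

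**Figure D5:**
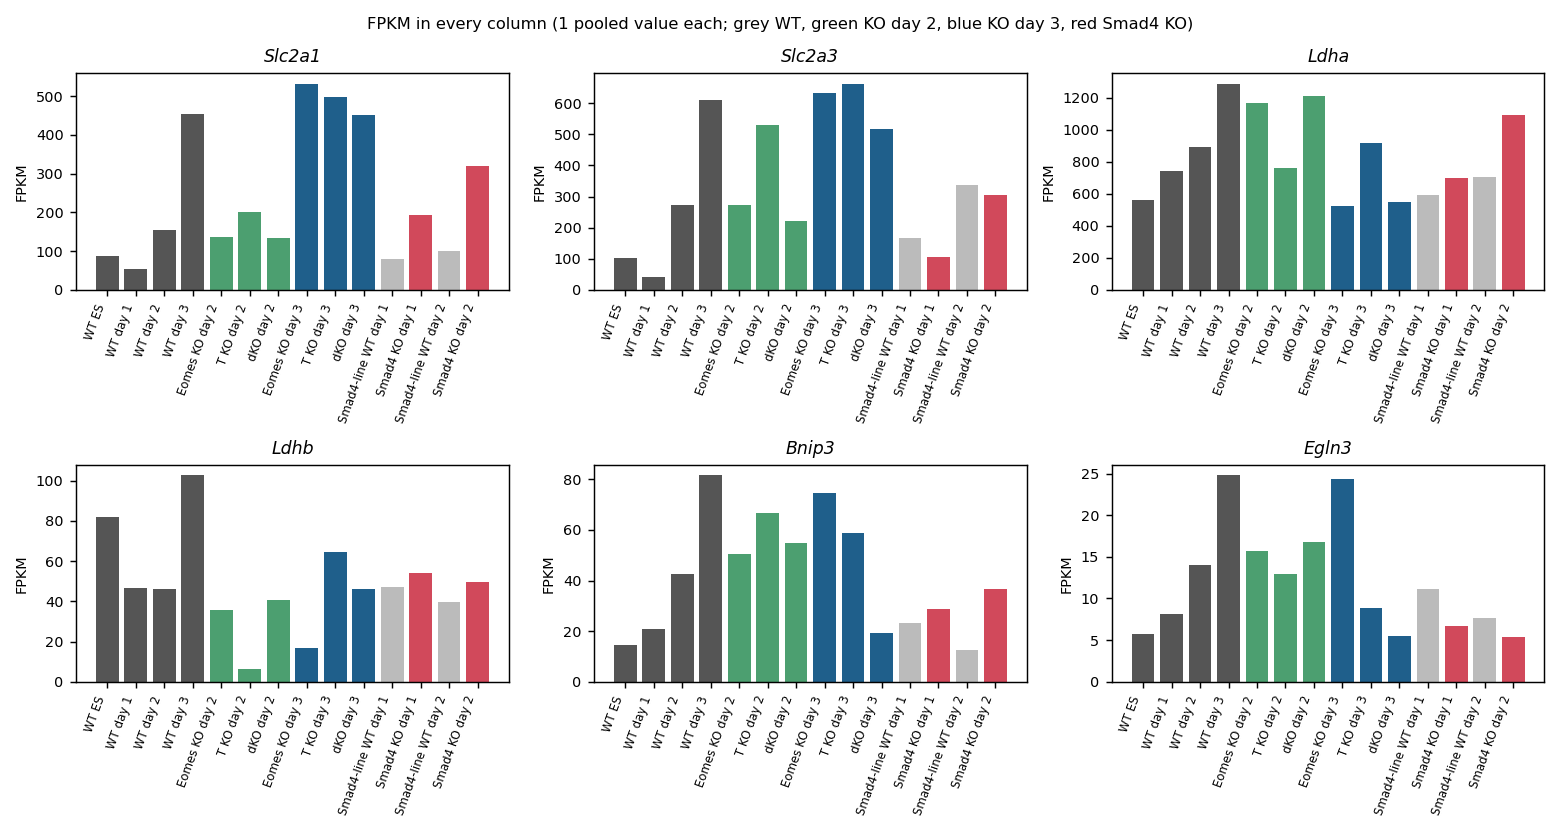
FPKM (y axis from 0, 1 pooled value per bar) of *Slc2a1*, *Slc2a3*, *Ldha*, *Ldhb*, *Bnip3* and *Egln3* in the 14 columns. *Slc2a1* and *Slc2a3* reach 452 and 517 in dKO day 3, close to WT day 3, where *Ldha*, *Bnip3* and *Egln3* stand at 547, 19.4 and 5.54.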

How the data were processed

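Total RNA of 18 samples (2 per F1G4 WT stage and 1 per KO line and day by the labels) was made into strand-specific libraries and sequenced from both ends. The authors trimmed reads with cutadapt 2.9, aligned them to mm10 with HISAT2 2.1.0 and SAMtools 1.9, and computed the deposited FPKM values per RefSeq gene with Cuffdiff 2.2.1, with multi-read and bias correction. Each column is 1 value per condition, described in the study as an average of 2 replicates, also for the KO lines, whereas the labels list 1 sample per KO line and day and for each *Smad4*-line WT; which libraries a KO column pools is not given in the sources used here. Without counts or replicates, no test, SD or interval was possible and the depth is unknown. Bias correction and multi-read assignment can move values of short genes and of near-identical copies.

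The 37 members and all gene lists were chosen with earlier results of these data known. Ratios were taken within a table, with no pseudocount, over genes with FPKM above 1 in either column, and log2 ratios above 1 or below -1 were called. Members called at an FPKM of 10 or more, and *Hif1a*, are given in full and the others by range, while further lists name at most 3 called genes in each direction at an FPKM of 10 or more; 1 gene that this rule names is not reported here. Alternatives were pseudocounts of 0.1 and 1, no FPKM minimum, a minimum of 5, rescaling to TPM, scaling to a median ratio of 1, the WT column of the time course, and, added after seeing the data, removal of trends with transcript length and GC content in 20 bins. The call step was tested on simulated data. Promoters came from RefSeq on GRCm38.p6. Python 3.11.15, numpy 2.4.6, pandas 2.3.3 and matplotlib 3.10.9 were used.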

Additional observations from a re-analysis of the deposited data

Results flagged for a closer look

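A few members passed the 2-fold rule in opposite directions in different KO comparisons, and the difference between the comparisons was not tested. *Bnip3* had a log2 ratio of 1.57 in *Smad4* KO cells on day 2 and of -2.13 in dKO cells on day 3. *Aldoc* had 1.01 and -1.39 in the same comparisons. The *Smad4* table has its own WT line, in which both genes were more than 2-fold lower than in F1G4 WT on day 2. *Eno2* had -1.45 (day 2) and 1.01 (day 3) in *Eomes* KO cells, at FPKM values of 0.366 to 1.39.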

How the results depend on the processing

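No paired analysis was possible because each condition had 1 pooled FPKM value, and for the same reason no replicate could be left out. Of 180 recomputed counts and medians, 172 stayed within 1.5 times the count or within 0.33 of the median, the size of the member median between the WT lines on day 2. Rescaling to TPM changed the dKO day 2 result, with 7 members called against 3 and a median of -0.52 against -0.12, and that column had the largest FPKM total; it also gave 5 called members in *Eomes* KO day 3 (8 as reported) and 2 in *T* KO day 3 (1 as reported). With a pseudocount of 1, 1 member was called in *Eomes* KO day 2 and 0 in dKO day 2 (3 as reported in each). With an FPKM minimum of 5, 0 were called in *Eomes* KO day 2, since none of its 3 called members reached that level. Without a minimum, 2 were called in *Smad4* KO day 1 (1 as reported), *Adm* being added. Of the 82 single calls, none changed sign under any alternative, and 37 of 600 recomputed ratios fell below the threshold, among them *Slc16a3*, *Pdk1* (both dKO day 3), *Aldoc* (*Smad4* KO day 2) and *Ndrg1* (*Eomes* KO day 3). Removing length and GC trends, an alternative chosen after seeing the data, left 14 of 16 calls in dKO day 3. Single values per condition limit all of these results, since a difference between 2 columns cannot be set against the spread between cultures.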

Other observations

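*Stc2*, a secreted glycoprotein gene induced by stress, and *Pck2*, the mitochondrial enzyme that makes phosphoenolpyruvate, were singled out from the wider lists after their values were seen. In WT cells *Stc2* read 2.55, 13.8, 13.4 and 11.5 FPKM at ES and on days 1, 2 and 3, and *Pck2* read 5.34, 30.9, 26.3 and 18.7, so both were called higher within the first day (log2 2.44 and 2.53), when the members of the set were balanced. *Stc2* was called lower in all 6 *Eomes* KO, *T* KO and dKO comparisons, with log2 ratios of -1.34 and -1.22 in *Eomes* KO, -1.56 and -1.003 in *T* KO and -1.17 and -1.52 in dKO cells on days 2 and 3. *Pck2* was called lower in 4 of them, with log2 ratios from -1.11 to -1.78, and had -0.91 and -0.64 in *T* KO cells. In *Smad4* KO cells neither differed from WT by more than 0.19 on the log2 scale. The KO tables of 1 day share their WT libraries, and none of these differences was tested.

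*Mpc1*, a subunit of the mitochondrial pyruvate carrier and likewise chosen after its values were seen, was called lower in *Smad4* KO day 2 (5.51 and 0.957 FPKM), *Eomes* KO day 3 (7.87 and 2.71 FPKM, in a column that stood apart from the rest) and *T* KO day 3 (7.59 and 2.03 FPKM), but not in dKO cells, where its log2 ratios were -0.12 and -0.72.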
